A study of Mus musculus with 9 samples.

Results

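The 8 genes Chd1, Chd2, Chd3, Chd4, Chd6, Chd7, Chd8 and Chd9 encode CHD (chromodomain helicase DNA-binding) proteins, and they were taken by name from the 54119 mouse genes to which the listed transcripts could be assigned. The estimated counts of all Ensembl transcripts of each gene were summed, which used 91 of the 140948 transcripts listed, and for Chd8 its 16 transcripts were also described singly. The libraries came from primary microglia of C57BL/6J mice, prepared from a mixed glial culture of embryonic brain and transfected with siRNA, a short RNA that directs the degradation of a matching transcript. The 9 RNA-seq libraries formed 3 groups of 3, numbered 1 to 3 by their labels, which received control siRNA, Chd8 siRNA or Tsc2 siRNA. No group was left without siRNA, so the control siRNA libraries, which were transfected in the same way, were the baseline throughout. RNA was taken after 3 days of siRNA. The study's account of these libraries mentions stimulation with LPS, a bacterial activator of microglia, whereas the labels and the RNA-seq methods name none, so the levels below may be those of stimulated cells in all groups. An RNA level is a mean over all cells of a culture, transfected or not, so fewer cells with a transcript and less of it in each cell cannot be told apart.

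CHD proteins use ATP to slide, space or evict nucleosomes, and a pair of chromodomains near one end lets them bind histone tails. They are sorted into 3 subfamilies. Chd1 and Chd2 form subfamily I and act at transcribed genes, Chd3 and Chd4 form subfamily II and are alternative motor subunits of the NuRD deacetylase complex, and Chd6, Chd7, Chd8 and Chd9 form subfamily III, which binds enhancers and promoters. Loss of 1 copy of CHD8 is among the best known single-gene causes of autism in people, and CHD7 is the gene of CHARGE syndrome. Tsc2 encodes tuberin, an inhibitor of mTORC1 signaling, and is also an autism-related gene.

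The relatedness of the members can be seen in their coding sequence. The stretches below are 60 coding bases from 1 protein-coding transcript of each gene, aligned in the same reading frame around the longest run that Chd8 and Chd9 share in their coding sequences (20 bases), with capitals marking the bases that are the same as in Chd8. They are shown because a knockdown acts through sequence match and the counts are assigned by it. Positions are on GRCm38 (mm10), and the windows of Chd3 and Chd4 run across an intron.
Chd8: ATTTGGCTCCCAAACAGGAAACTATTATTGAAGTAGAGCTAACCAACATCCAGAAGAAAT
Chd7: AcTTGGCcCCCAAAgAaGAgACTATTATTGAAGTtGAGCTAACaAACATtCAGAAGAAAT
Chd9: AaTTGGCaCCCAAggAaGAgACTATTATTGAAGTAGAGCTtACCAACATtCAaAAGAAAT
Chd6: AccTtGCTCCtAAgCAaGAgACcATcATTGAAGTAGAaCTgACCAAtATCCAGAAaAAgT
Chd3: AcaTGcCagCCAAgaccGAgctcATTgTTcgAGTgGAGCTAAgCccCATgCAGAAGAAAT
Chd4: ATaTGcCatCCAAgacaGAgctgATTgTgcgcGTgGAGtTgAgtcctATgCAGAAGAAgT
Chd1: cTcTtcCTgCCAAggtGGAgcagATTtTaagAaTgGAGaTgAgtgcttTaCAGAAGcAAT
Chd2: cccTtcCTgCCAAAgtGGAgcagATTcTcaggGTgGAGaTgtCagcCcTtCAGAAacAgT

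The Chd8 window lies on chromosome 14, chr14:52217845-52217904, minus strand. In this window 86.7% of the bases of Chd7 (chr4:8833807-8833866, plus strand), 85.0% of those of Chd9 (chr8:90997144-90997203, plus strand) and 76.7% of those of Chd6 (chr2:161014213-161014272, minus strand) were the same as in Chd8, against 51.7% to 65.0% for the members of subfamilies I and II. Even so, over the whole coding sequences the longest run shared with Chd8 was 23 bases for Chd7, 20 for Chd6 and for Chd9, and 14 to 18 for the other 4. Over all annotated transcripts, Chd3 and Chd4 shared 8 words of 31 bases, Chd8 and Chd9 shared 2, and no other pair of members shared any, so few positions could be counted for more than 1 member. The siRNA sequences are not given in the sources used here, so their match to the members was not analysed.

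The library totals ranged from 16913448 to 33213801 estimated counts. Summed levels of 8 microglial markers were 1426 to 2170 CPM (counts scaled to normalized library size) in every library, with 7 of the 8 above 3 counts in all 9 libraries. The astrocyte markers summed to 14.6 to 106 CPM in control siRNA, 13.6 to 47.1 in Chd8 siRNA and 12 to 51.0 in Tsc2 siRNA. Fibroblast and vessel markers, of which Kdr was the highest, summed to 53.7 to 111, 61.8 to 71.8 and 55.1 to 95.6 CPM in these groups. Over all libraries, oligodendrocyte lineage markers summed to 11.8 to 27.4 CPM and neuron markers to 3.93 to 20.3 CPM. The part of other cell types in the results below was not tested. The libraries carrying replicate number 1 stood apart on the first principal component (31.7% of the variance), at -65.1 to -60.3 against 9.9 to 56.5 for the other 6. Same-numbered libraries of different groups deviated from their group means together (r = 0.24 to 0.52 over genes, in every pair), so each comparison was fitted with edgeR both without and with the replicate number as a block. A gene was called at an adjusted p under 0.05 and a fold change of at least 1.5. Without the block, 0 genes (0% of the 16273 tested) were called in any comparison. Tsc2, the other targeted gene, was at 24.6, 30.6 and 36.5 CPM in the Tsc2 siRNA libraries and at 38.6 to 40.8 CPM in the other 6, a difference that edgeR did not call (log2 fold change against control siRNA -0.39, SE 0.12, adjusted p = 0.219 with the block).

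Chd8 (ENSMUSG00000053754; GRCm38 chr14:52198151-52257780, minus strand), the targeted member, which binds promoters and the methylated tail of histone H3, was lower on average in the Chd8 siRNA libraries, and in CPM all 3 were below the 6 others. Its level was 118, 97.4 and 93.6 CPM in control siRNA replicates 1, 2 and 3 (103 ± 13.1, mean ± SD, n = 3), 119, 89.8 and 101 CPM in Tsc2 siRNA (103 ± 14.4), and 86.8, 44.5 and 38.3 CPM in Chd8 siRNA (56.5 ± 26.4). Chd8 siRNA replicate 1 was just below the lowest of the other 6 libraries, while replicates 2 and 3 were far below them. Within a replicate number, Chd8 siRNA held 73.7%, 45.7% and 40.9% of the Chd8 level of control siRNA, and 73.3%, 49.6% and 37.8% of that of Tsc2 siRNA. The depth of the knockdown thus differed between the numbered sets by more than the control or the Tsc2 siRNA libraries differed among themselves.

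With the replicate number as a block, Chd8 fell in Chd8 siRNA against control siRNA, with a log2 fold change of -0.93 (SE 0.14, edgeR adjusted p = 0.00777). It was the only 1 of the 8 members called, in a comparison where 0.535% of all genes tested were called. Chd8 likewise fell against Tsc2 siRNA (-0.93, SE 0.14, edgeR adjusted p = 0.0156, with 0.221% of genes called), and against the 6 other libraries together (-0.93, SE 0.13, adjusted p = 0.00553, with 0.332% of genes called). Without the block the log2 fold change against control siRNA was -0.86 (SE 0.28) with an adjusted p of 1.000 by edgeR, and DESeq2 without the block gave -0.85 with an adjusted p of 0.787. The blocked call against control siRNA was lost without control siRNA replicate 2 (adjusted p = 0.0586, edgeR), control siRNA replicate 3 (0.0795) or Chd8 siRNA replicate 2 (0.0821). It was kept without each of the other 3, and without the 3 libraries numbered 1 (0.00130). The call against Tsc2 siRNA was lost in the same fit without Chd8 siRNA replicate 2 (0.142) or 3 (0.131), or without Tsc2 siRNA replicate 2 (0.107) or 3 (0.0746). A 2-sided exact permutation test of the 3 Chd8 siRNA libraries against the 6 others gave p = 0.0238, the smallest that 84 arrangements allow. The complete separation was shared, in the same direction, by 1.36% of all genes tested. It depended on the scaling, because Chd8 siRNA replicate 1 lay above Tsc2 siRNA replicate 2 when counts were scaled by library size alone (87.5 against 85.6 CPM, exact permutation p = 0.0476). With counts divided by transcript length (TPM), replicate 1 at 10.3 also lay above control siRNA replicates 2 and 3 (9.51 and 9.84), and the difference of the mean log2 levels was -0.75 (exact permutation p = 0.0952).

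Tsc2 siRNA left Chd8 at the control level on average (log2 fold change 0.00, SE 0.14 with the block, edgeR adjusted p = 0.996), and the ranges of the groups overlapped. None of the 8 members was called in Tsc2 siRNA against control siRNA (0 called without the block, 0 with it and 0 by DESeq2), in a comparison where 0.387% of genes were called with the block. At an unadjusted p under 0.05, that comparison held 1 member without the block (Chd7) and 2 with it (Chd6 and Chd7), among 425 and 1737 of all genes tested. In Chd8 siRNA against control siRNA 2 members were under that limit in either fit (Chd3 and Chd8), among 622 genes without the block and 2091 with it. In Chd8 siRNA against Tsc2 siRNA 3 members were (Chd3, Chd7 and Chd8), among 504 and 1745 genes. DESeq2, without the block, called none of the 8 in any of the 3 comparisons, and among all genes it called 8 (0.0507% of those given an adjusted p) in Chd8 siRNA and 4 (0.0136%) in Tsc2 siRNA, each against control siRNA, and 2 (0.00680%) between the knockdowns. All comparisons with 1 group in common share those libraries, so they are not independent of each other.

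**Figure D1:**
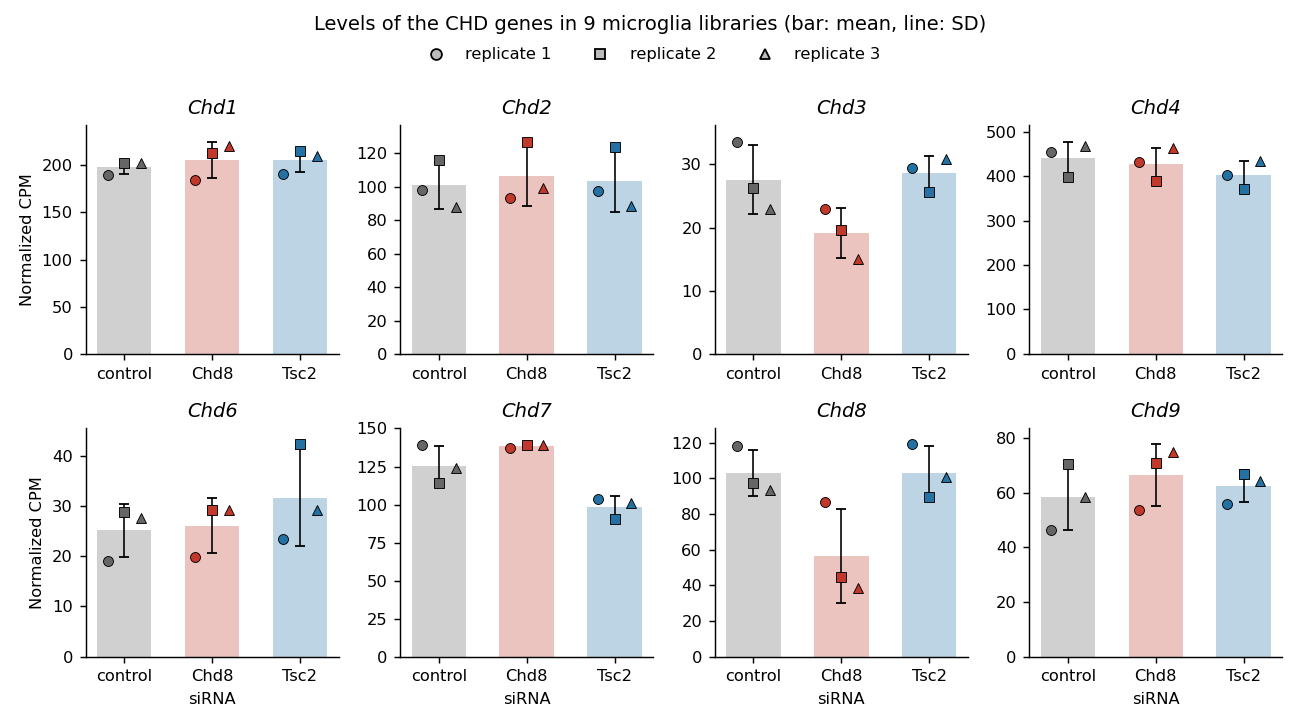
Level of each CHD gene (y axis, normalized CPM) in control, Chd8 and Tsc2 siRNA libraries, with points for single libraries shaped by replicate number, bars for the mean and lines for the SD. On this scale the 3 Chd8 siRNA points lie below the other 6 for Chd8 and for Chd3, the 3 Tsc2 siRNA points lie below the other 6 for Chd7, and the groups overlap for the other 5 genes.

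Chd7 (ENSMUSG00000041235; chr4:8690406-8867659, plus strand), the closest relative of Chd8 in the sequence window and a remodeler of enhancers, was lowest on average in Tsc2 siRNA. It stood at 139, 114 and 124 CPM in control siRNA (126 ± 12.8), at 137, 139 and 139 CPM in Chd8 siRNA (138 ± 1.37) and at 104, 90.3 and 101 CPM in Tsc2 siRNA (98.3 ± 7.0). In CPM all 3 Tsc2 siRNA libraries were below the other 6, and the Chd8 siRNA libraries were above every Tsc2 siRNA library but overlapped the controls. Within the numbered sets, Tsc2 siRNA held 74.4%, 79.2% and 81.6% of the Chd7 level of control siRNA. The log2 fold change of Chd7 in Tsc2 siRNA against control siRNA was -0.35 (SE 0.08) with the block, and it was not called (edgeR adjusted p = 0.0794). A complete separation in this direction was found for 4.23% of genes against control siRNA, and for 0.836% against the 6 other libraries (2-sided exact permutation p = 0.0238, the smallest possible, for Chd7, unadjusted). In TPM the separation was lost, with Tsc2 siRNA at 8.10, 5.82 and 9.72 against 7.35 in control siRNA replicate 2 and 8.77 in Chd8 siRNA replicate 2 (mean log2 difference from the 6 others -0.34, exact permutation p = 0.167).

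Between the 2 knockdowns, Chd7 was 132%, 154% and 138% as high in Chd8 siRNA as in Tsc2 siRNA of the same number, a separation upward that 4.02% of genes shared and that was also lost in TPM. Its log2 fold change was 0.49 (SE 0.08, edgeR adjusted p = 0.0209 with the block), past the limit on p but, at a fold of 1.41, under the limit on fold change. Without the block the adjusted p was 1.000 by edgeR (0.49, SE 0.12). With the block it passed 0.05 without Chd8 siRNA replicate 2 (0.174) or 3 (0.214), or without Tsc2 siRNA replicate 2 (0.216) or 3 (0.0885). Chd8 siRNA against control siRNA gave a smaller Chd7 difference of 0.14 (SE 0.08, edgeR adjusted p = 0.515 with the block). The ratio of Chd8 to Chd7, taken within each library, separated the Chd8 siRNA libraries from the other 6 (difference of the mean log2 ratios -1.26, 2-sided exact permutation p = 0.0238, smallest possible). This was 1 of 7 ratios of Chd8 to another member that were tested, none of which stayed under 0.05 after adjustment. The ratios to the other members overlapped. The ratio is made of the Chd8 and Chd7 levels given above, so it is not a result independent of them.

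The remaining members of subfamily III, Chd6 and Chd9, followed the replicate number more than the siRNA. Chd6 (ENSMUSG00000057133; chr2:160946978-161109075, minus strand), which has been linked to the oxidative stress response, was at 19.1, 28.7 and 27.6 CPM in control siRNA (25.1 ± 5.25), 19.8, 29.2 and 29.2 CPM in Chd8 siRNA (26.1 ± 5.41) and 23.5, 42.2 and 29.2 CPM in Tsc2 siRNA (31.6 ± 9.59). Replicate 1 was the lowest library of each group, and Tsc2 siRNA replicate 2 was the highest of all. The Chd6 difference of Tsc2 siRNA from control siRNA was 0.31 on the log2 scale (SE 0.13, edgeR adjusted p = 0.369 with the block). Chd9 (ENSMUSG00000056608; chr8:90828352-91054516, plus strand) had levels of 46.3, 70.5 and 58.5 CPM in control siRNA (58.4 ± 12.1), 53.7, 70.8 and 74.7 CPM in Chd8 siRNA (66.4 ± 11.2) and 55.7, 66.8 and 64.3 CPM in Tsc2 siRNA (62.3 ± 5.82). Its 3 groups overlapped, with a log2 fold change of 0.19 (SE 0.10, edgeR adjusted p = 0.442 with the block) in Chd8 siRNA against control siRNA.

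Subfamily II holds the genes of the alternative NuRD motors, Chd3 and Chd4. Chd3 (ENSMUSG00000018474; chr11:69343273-69369406, minus strand) was at 33.6, 26.2 and 23.0 CPM in control siRNA (27.6 ± 5.42), 29.5, 25.6 and 30.8 CPM in Tsc2 siRNA (28.6 ± 2.69), and 22.9, 19.7 and 15.0 CPM in Chd8 siRNA (19.2 ± 3.99). In CPM the 3 Chd8 siRNA libraries were below the other 6, although the highest of them (22.9) nearly touched the lowest control (23.0). With DESeq2 size factors the ranges overlapped (exact permutation p = 0.0476). They also overlapped in TPM, where Chd8 siRNA replicate 1 at 3.20 was above control siRNA replicates 2 and 3 (2.80 and 2.37) and Tsc2 siRNA replicate 2 (2.29), with p = 0.143 by exact permutation. Within the numbered sets Chd3 stood at 68.3%, 75.3% and 65.2% of control siRNA, and at 77.9%, 76.9% and 48.7% of Tsc2 siRNA. The log2 fold change of Chd3 was -0.52 (SE 0.15) against control siRNA, and edgeR did not call it (adjusted p = 0.105 with the block, 1.000 without). Against Tsc2 siRNA it was -0.60 (SE 0.15, adjusted p = 0.108 with the block, edgeR). The exact permutation test of Chd3 against the 6 other libraries gave p = 0.0238, the smallest possible, and was 1 of 16 such tests on the members. None of the 16, those of Chd8 and Chd7 included, stayed under 0.05 after adjustment. Separations downward of this kind were found for 4.92% of genes in Chd8 siRNA against control siRNA and for 4.42% against Tsc2 siRNA.

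Chd4 (ENSMUSG00000063870; chr6:125095981-125130591, plus strand), the motor found in most NuRD complexes, was the most abundant member and among the steadiest. It was at 455, 397 and 467 CPM in control siRNA (440 ± 37.4), 431, 389 and 462 CPM in Chd8 siRNA (427 ± 37.0) and 402, 371 and 433 CPM in Tsc2 siRNA (402 ± 31.3). Replicate 2 was the lowest library of each group, and the groups overlapped. Its log2 fold change was -0.04 (SE 0.06) in Chd8 siRNA and -0.13 (SE 0.06, edgeR adjusted p = 0.504 with the block) in Tsc2 siRNA, each against control siRNA.

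In CPM the subfamily I genes were level across the siRNAs. Chd1 (ENSMUSG00000023852; chr17:15704967-15772610, plus strand), which reads methylated histone H3 at active genes, ranged from 184 to 220 CPM over all 9 libraries, a highest-to-lowest ratio of 1.19. Its group means were 198 ± 7.76, 206 ± 18.8 and 206 ± 12.6 CPM in control, Chd8 and Tsc2 siRNA. Chd2 (ENSMUSG00000078671; chr7:73426638-73541830, minus strand), a remodeler linked to epilepsy in people, was at 98.3, 116 and 88.2 CPM in control siRNA, 93.6, 127 and 99.1 CPM in Chd8 siRNA and 97.4, 124 and 88.6 CPM in Tsc2 siRNA, so replicate 2 was the highest library of each group. The log2 fold changes of Chd1 and Chd2 against control siRNA were between 0.03 and 0.07 with the block (SE 0.07 to 0.08), and neither was called. In TPM, Chd2 in Chd8 siRNA (18.2 to 24.0) lay above control siRNA (16.5 to 17.5), and Chd1 in Tsc2 siRNA (highest 24.6) lay above control siRNA, at its lowest by less than the printed precision. For both the exact permutation p was 0.10, the smallest that 3 against 3 libraries allow. Both overlapped in CPM, and the share of all genes separated in TPM was not counted.

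**Figure D2:**
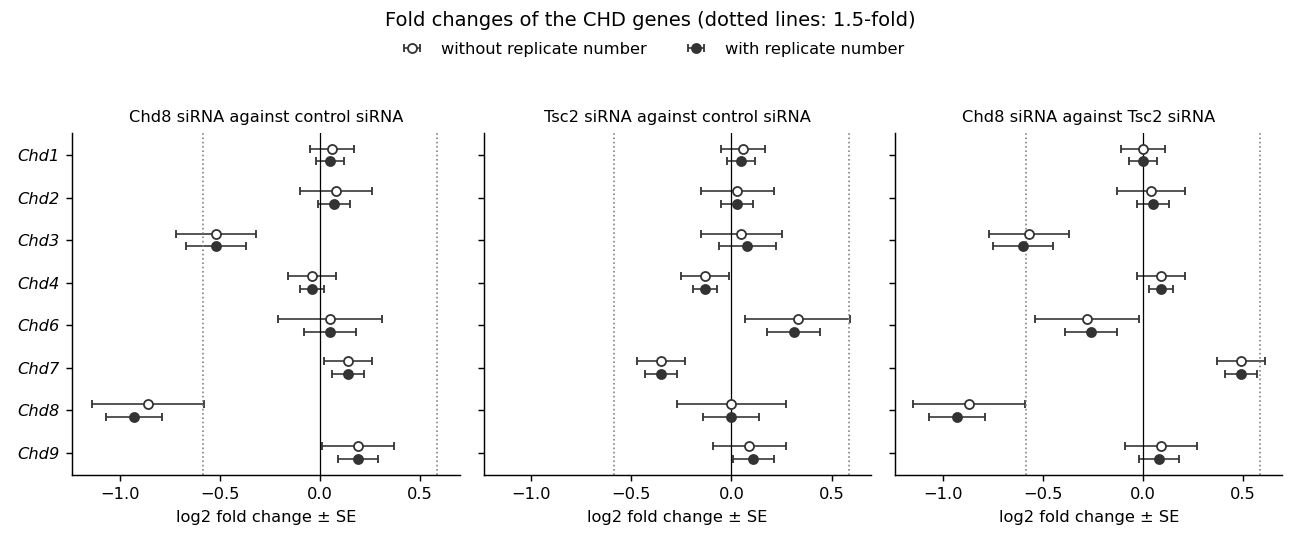
Log2 fold change with its SE (x axis) of each CHD gene (y axis) in the 3 comparisons, fitted without (open circles) and with (filled circles) the replicate number, with dotted lines at a 1.5-fold change. Chd8 lies beyond the line in both comparisons of Chd8 siRNA, at -0.93 with the replicate number, and Chd7 lies at 0.49 between the 2 knockdowns.

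The same 9 levels can be described by how much of their variation went with the replicate number. On the log2 scale the replicate number accounted for 79.2% of the variance of Chd1 over the 9 libraries, 90.9% of that of Chd2, 75.5% of that of Chd4, 73.2% of that of Chd6 and 73.6% of that of Chd9. For the same 5 genes the siRNA accounted for 2.59% to 22.6%. In Chd3, Chd7 and Chd8 the order was the other way round, with 62.2%, 85.8% and 66.1% of the variance between siRNAs and 20.8%, 7.85% and 23.2% between replicate numbers. These shares restate the levels above and carry no test.

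Levels of different genes were compared per length, as TPM, in which the counts of each transcript are divided by its annotated length before scaling to the library. In control siRNA microglia Chd4 was highest at 50.8 ± 9.69 TPM (SD, n = 3), followed by Chd1 at 19.6 ± 0.699, Chd2 at 17.1 ± 0.581 and Chd8 at 10.7 ± 1.81 TPM. Chd9 at 9.76 ± 1.41, Chd7 at 9.26 ± 1.72, Chd6 at 2.95 ± 0.681 and Chd3 at 2.92 ± 0.612 TPM came after them. The control ranges of Chd8 and Chd9 overlapped, as did those of Chd9 and Chd7 and those of Chd6 and Chd3, so these neighbors were not separated, while the other 4 neighboring pairs were separate in control siRNA. Over all 9 libraries the order held in 9 for 3 of those 4 pairs and in 7 for Chd1 above Chd2. Among the unseparated pairs, Chd8 was above Chd9 in 3 libraries, Chd9 above Chd7 in 5 and Chd6 above Chd3 in 5. Chd8 itself was at 10.3, 4.81 and 4.71 TPM in Chd8 siRNA and at 12.2, 9.10 and 11.8 TPM in Tsc2 siRNA. Chd5, the subfamily II gene of neurons that was not among the members, was at 0.00187 to 0.0467 TPM.

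Chd8 has 16 annotated transcripts, of which 5 are protein coding, 10 are annotated as retaining an intron and 1 is another processed transcript. Chd8-201 (8190 bases, 37 exons) held 57.4% of all Chd8 counts and Chd8-212 (8509 bases, 38 exons) held 28.6%. Both carry the identical coding sequence of 7746 bases, or 2582 codons, and Chd8-212 differs only by 319 additional bases ahead of it. Of the 31-base words in Chd8-201 none is absent from the other Chd8 transcripts, and 0.979% of those in Chd8-212 are its own, so few reads can tell the 2 apart.

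**Figure D3:**
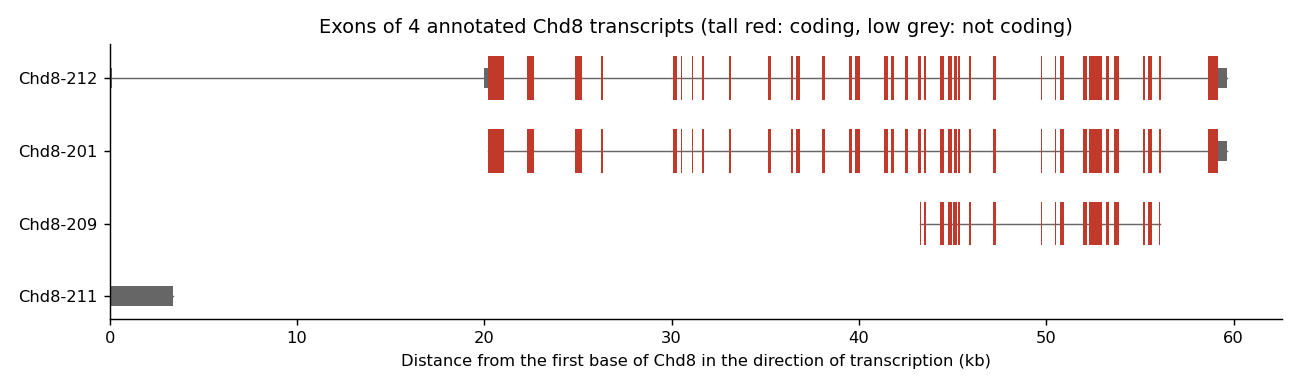
Exons of 4 Chd8 transcripts by distance from the first base of the gene in the direction of transcription (x axis, kb), tall red where coding and low grey where not. Chd8-212 and Chd8-201 carry the same coding exons, Chd8-209 covers 18 coding exons of the later part of the gene, and Chd8-211 is a single exon at its start.

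The split between the 2 main transcripts varied among libraries of 1 group as much as between groups. Chd8-201 was at 35.9, 72.9 and 58.3 CPM in control siRNA, 53.4, 35.6 and 24.9 CPM in Chd8 siRNA and 73.9, 45.2 and 61.3 CPM in Tsc2 siRNA. Chd8-212 was at 64.6, 8.84 and 24.6 CPM in control siRNA, 23.0, 1.15 and 8.89 CPM in Chd8 siRNA and 28.2, 28.9 and 26.1 CPM in Tsc2 siRNA. Neither transcript separated Chd8 siRNA from control siRNA by itself, while Chd8-212 was lower in Chd8 siRNA than in every Tsc2 siRNA library (exact permutation p = 0.10). The sum of both transcripts separated Chd8 siRNA from control siRNA (p = 0.10, exact permutation). Each of these p is the smallest possible, and the share of transcripts so separated was not counted. The sum was at 101, 81.8 and 82.9 CPM in control siRNA (88.4 ± 10.5) against 76.4, 36.8 and 33.8 CPM in Chd8 siRNA (49.0 ± 23.8). Tsc2 siRNA at 102, 74.1 and 87.4 CPM (87.9 ± 14) overlapped the first library of Chd8 siRNA. Fitted as a single feature, a choice made after seeing the data, the sum had a log2 fold change of -0.92 (SE 0.20, edgeR adjusted p = 0.748 with the block), close to that of the whole gene and not called among transcripts.

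Chd8-209 (3094 bases, 18 exons, all coding; chr14:52201705-52214492, minus strand) was the Chd8 transcript with the largest relative difference among those above 1 CPM in control siRNA. It carries 24 coding bases that Chd8-201 and Chd8-212 lack, which add 8 codons in frame with no stop codon. They are shown in capitals, at chr14:52212720-52212743, with 30 bases of the transcript on each side, since this stretch is what sets its reads apart.
Chd8-209: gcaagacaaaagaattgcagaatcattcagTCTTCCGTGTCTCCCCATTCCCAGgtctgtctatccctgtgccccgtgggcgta
Chd8-201: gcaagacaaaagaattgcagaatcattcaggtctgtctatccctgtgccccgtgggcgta

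Chd8-209 had 200, 145 and 101 estimated counts in control siRNA, 175, 160 and 243 in Tsc2 siRNA, and 65.4, 6.00 and 0 in Chd8 siRNA. In CPM these were 7.53, 8.92 and 4.33 in control siRNA, 7.47, 8.02 and 7.12 in Tsc2 siRNA and 2.19, 0.383 and 0 in Chd8 siRNA. By counting error alone, the 0 of replicate 3 allows up to 0.123 CPM (3 counts) of reads assigned to Chd8-209. All 3 Chd8 siRNA libraries were below the other 6, a separation in CPM that 1.18% of all transcripts tested had in the same direction. Of its 31-base words 51 (1.66%) are absent from the other Chd8 transcripts, so few positions tell its reads from theirs. As a share of the Chd8 counts of its library, which also moves with the other Chd8 transcripts, Chd8-209 made up 6.39%, 9.15% and 4.63% in control siRNA (6.72 ± 2.28). In Tsc2 siRNA it made up 6.31%, 8.93% and 7.04% (7.42 ± 1.35). In Chd8 siRNA its share was 2.52% (Wilson 95% interval 1.97% to 3.18%), 0.860% (0.395% to 1.86%) and 0% (0% to 0.411%, of 930 counts), with a mean of 1.13 ± 1.28. These intervals and the limit on the 0 cover counting error only. They leave out error in assigning reads between Chd8 transcripts, so the transcript itself may exceed them.

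The difference in mean share between Chd8 siRNA and the 6 other libraries was -5.95 percentage points (2-sided exact permutation p = 0.0238, the smallest possible), and among the 16 transcripts no p stayed under 0.05 after adjustment. Of 37201 transcripts of genes with several, 1.10% had a share of their gene separated downward in this way. The edgeR test of Chd8 siRNA against control siRNA over 41633 transcripts did not call Chd8-209, with a log2 fold change of -2.99 (SE 1.14, adjusted p = 1.00) without the block and -3.63 (SE 1.21, adjusted p = 0.890) with it. Against the 6 other libraries it was -3.05 and -3.76 (edgeR adjusted p = 0.926 with the block), also not called. Against control siRNA none of the 12 Chd8 transcripts that passed the filter was called, in a comparison where 0% of transcripts were called in either fit. At an unadjusted p under 0.05 it held 1 Chd8 transcript (Chd8-209) and 1384 of all transcripts without the block, and DESeq2 called 193 transcripts (0.386% of those given an adjusted p), none of them of Chd8. The biological coefficient of variation was 0.828 among transcripts against 0.408 among genes.

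The 10 transcripts annotated with a retained intron formed a larger share of the Chd8 counts in Chd8 siRNA, while their own level overlapped between the groups. Their share was 7.57%, 5.88% and 6.15% in control siRNA (6.53 ± 0.910), 6.65%, 8.0% and 5.47% in Tsc2 siRNA (6.70 ± 1.27), and 8.25%, 14.8% and 10.1% in Chd8 siRNA (11.1 ± 3.36). All 3 Chd8 siRNA libraries were above the other 6, the first of them by a narrow margin. Of 7033 genes with counts of such a transcript, 0.711% had a retained-intron share separated in this direction. The mean share was 4.44 percentage points higher than in the 6 other libraries (2-sided exact permutation p = 0.0238) and 4.53 points higher than in control siRNA (p = 0.10, exact permutation), both the smallest p the designs allow. Without Chd8 siRNA replicate 2 the first of these differences was 2.58 points. With counts divided by transcript length the difference from the 6 others was 9.36 points (exact permutation p = 0.0476). The level of these transcripts was 8.93, 5.73 and 5.76 CPM in control siRNA, 7.16, 6.58 and 3.88 CPM in Chd8 siRNA and 7.88, 7.19 and 5.53 CPM in Tsc2 siRNA. The share of the 5 protein-coding transcripts was lower by the same 4.44 points, since the 2 classes together held every Chd8 count. Chd1 has no transcript annotated this way, and of the 6 remaining members none had a retained-intron share in which Chd8 siRNA was separate from the 6 other libraries.

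The other Chd8 transcripts were rare, at 0.0195% to 1.48% of all Chd8 counts each, apart from Chd8-208. Chd8-215, a retained-intron transcript of the end of the gene, was at 0.717, 1.34 and 0.627 CPM in Chd8 siRNA, at 0, 0 and 0.889 CPM in control siRNA and at 0 in all 3 Tsc2 siRNA libraries. Control siRNA replicate 3 fell within the range of Chd8 siRNA. Chd8-211, a single exon of 3329 bases at the start of the gene of which 99.5% of the 31-base words are its own, was at 0.805, 0.684 and 0.960 CPM in control siRNA, 1.03, 0.195 and 0.319 CPM in Chd8 siRNA and 1.48, 0.664 and 0.182 CPM in Tsc2 siRNA, with overlap between all groups. Chd8-213, a short coding transcript of the start, had a share of 1.17%, 1.56% and 1.53% in Chd8 siRNA against 0.591% to 1.05% in the 6 others, a separation (exact permutation p = 0.0238, not under 0.05 after adjustment over the 16 transcripts) that its CPM did not have. A separation of this kind was found upward for 1.02% of transcripts. Chd8-208 was listed at 0 in every library. Chd8-202, Chd8-205, Chd8-208 and Chd8-216 did not pass the filter. Chd8-203, Chd8-204, Chd8-206, Chd8-207, Chd8-210 and Chd8-214 passed it, made up 0.505% to 1.48% of the counts each, and had overlapping levels in the 3 groups.

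**Figure D4:**
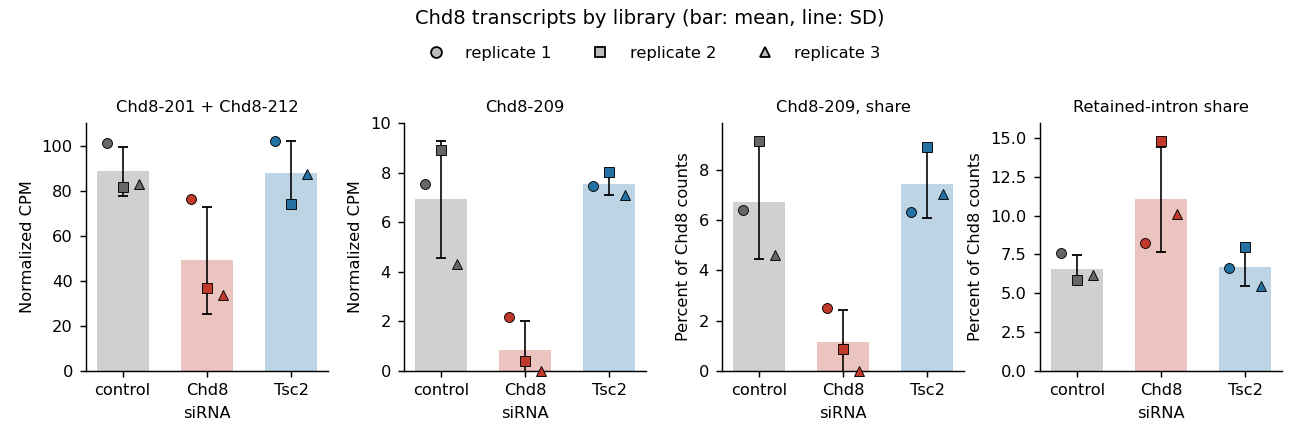
Chd8 transcripts in control, Chd8 and Tsc2 siRNA libraries: normalized CPM of Chd8-201 and Chd8-212 together and of Chd8-209, then the percent of Chd8 counts held by Chd8-209 and by the 10 retained-intron transcripts, with points for libraries, bars for means and lines for SDs. The Chd8-209 share is 0% to 2.52% in Chd8 siRNA and 4.63% to 9.15% elsewhere, and the retained-intron share is 8.25% to 14.8% against 5.47% to 8.0%.

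The genes whose levels were most like that of Chd8 over the 9 libraries, by Pearson correlation of log2 CPM, were Med15 (r = 0.99), Ppp1r8 (0.97), Stk3 (0.97), Rnf220 (0.96) and Trim11 (0.96). Med15, a subunit of the Mediator complex, was at 230.3, 193.8 and 201.5 CPM in control siRNA, 189.2, 132.2 and 128.3 CPM in Chd8 siRNA and 220.1, 202.9 and 205.4 CPM in Tsc2 siRNA. It thus had the same order of libraries within Chd8 siRNA as Chd8, with replicate 1 the highest. These genes were the top 5 of 16273, they share libraries and depth with Chd8, and the correlations are given as a description.

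Of 51 genes on 5 lists of CHD partners and other remodelers 49 were tested, and in each of the 3 comparisons edgeR called 0 without the block and 0 with it, and DESeq2 called 0. Few genes of any kind were called, namely 0% of all genes without the block, 0.221% to 0.535% with it, and 8, 4 and 2 genes by DESeq2, so a count of 0 among 49 is close to that background. The lists also stayed near the median log2 fold change of all genes, which was -0.02 in Chd8 siRNA and in Tsc2 siRNA, each against control siRNA, and 0.00 between them. The 12 NuRD partners of Chd3 and Chd4 had medians of 0.07, 0.04 and 0.01 in these 3 comparisons. The 8 core subunits of the histone H3 lysine methyltransferases that Chd8 binds had medians of 0.02, 0.05 and -0.07. The 5 tested of 6 Chd8 partners, Ctcf among them, had medians of 0.00, 0.05 and -0.04. The 12 tested of 13 other remodeler ATPases had medians of -0.07, -0.06 and 0.05, and the 12 SWI/SNF subunits 0.06, 0.10 and -0.04.

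At an unadjusted p under 0.05, the lists held 2 genes in Chd8 siRNA against control siRNA without the block (Ino80 and Srcap) and 7 with it, 1 (Trp53) and 8 in Tsc2 siRNA against control siRNA, and 0 and 3 between the knockdowns. Over all genes tested, 622, 425 and 504 were under that limit without the block, and 2091, 1737 and 1745 with it. Closest to the limit on adjusted p were Smarce1, a DNA-binding SWI/SNF subunit, with a log2 fold change of 0.42 (SE 0.10, edgeR adjusted p = 0.0535 with the block), and Srcap, which deposits histone variant H2A.Z, with -0.31 (SE 0.08, edgeR adjusted p = 0.0621), both in Chd8 siRNA against control siRNA. In Tsc2 siRNA against control siRNA Smarce1 was at 0.31 (SE 0.10, edgeR adjusted p = 0.208) and Srcap at -0.20 (SE 0.07, edgeR adjusted p = 0.317), both with the block. Ino80, a related ATPase that removes H2A.Z, was at -0.36 (SE 0.10, edgeR adjusted p = 0.107 with the block) in Chd8 siRNA against control siRNA. In Tsc2 siRNA against control siRNA, Hells, a remodeler of proliferating cells, had a log2 fold change of -0.81 (SE 0.33, edgeR adjusted p = 0.370) with the block and was not under the unadjusted limit without it. Ercc6, a repair ATPase, was at -0.44 (SE 0.16, edgeR adjusted p = 0.281 with the block), and Trp53, the p53 gene, was at 0.43 (SE 0.14, edgeR adjusted p = 0.235 with the block). Of the other genes with the lowest p of their list, Rbbp7 was at 0.15, Dpy30 at -0.39, Ctcf at -0.19 and Pbrm1 at -0.24 on the log2 scale in Chd8 siRNA against control siRNA without the block, none of them under an unadjusted p of 0.05. Nfe2l2, a transcription factor of the oxidative stress response, was at -0.21 in that comparison with the block (edgeR adjusted p = 0.263). In Tsc2 siRNA against control siRNA, Mta2 was at -0.19 and Kmt2b at 0.19 without the block, and Kmt2c was at -0.33 with it (edgeR adjusted p = 0.218). Between the knockdowns the genes with the lowest p of their list were Cdk2ap1 at -0.32, Wdr5 at -0.32, Trp53 at -0.33, Ino80 at -0.25 and Smarcd1 at -0.26 without the block. With it they were Mta2 at 0.17, Kmt2c at 0.32, Trp53 at -0.34, Ino80 at -0.25 and Smarcd2 at -0.27, and edgeR called none of these.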

How the data were processed

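Total RNA of 9 primary microglia libraries was sequenced, and the authors made and deposited 1 table of estimated counts per Ensembl transcript with Salmon 0.14.1 and tximport on mm10 (annotation release not given in the sources used here). From 26.8% to 32.1% of the values per library were not whole, and counts were rounded for testing. Transcripts were assigned to genes with GENCODE M21 (GRCm38): 139852 of 140948 matched, and the 1096 others held 0.270% of counts. Library totals were 16913448 to 33213801, so the floor of 3 counts, which covers counting error only, was 0.0878 to 0.191 normalized CPM. Per the study's methods biological replicates were cultures from separate brains, but neither they nor the labels say whether same-numbered libraries of different groups shared one.

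Genes and transcripts were tested in R 4.3.3 with edgeR 4.0.16 (quasi-likelihood F test, filterByExpr, TMM, all 9 libraries in 1 fit, Benjamini-Hochberg over every feature tested, adjusted p under 0.05 and a 1.5-fold change), after tests on simulated data. Single values were tested by 2-sided exact permutation of log2(normalized CPM + 0.5) or of shares, with 20 arrangements for 3 against 3 libraries (smallest p 0.10) and 84 for 3 against 6 (smallest p 0.0238). Same-numbered libraries correlated in their deviations from group means in every pair (r = 0.24 to 0.52; other pairs -0.38 to 0.04), so the replicate number was fitted as a block as the paired alternative. Other alternatives were DESeq2 1.42.0 and its size factors, no filter, protein-coding transcripts only, the 6 libraries of a comparison alone, another pseudocount, counts divided by length, each library left out, and, added after seeing the data, leaving out the libraries numbered 1, scaling by library size alone or as TPM, and summing Chd8-201 with Chd8-212. Permutation tests against the 6 other libraries for members other than Chd8 were also added then. Sequences were read from the GENCODE M21 transcripts, with GRCm38 positions from its annotation, by Python 3.11.15.

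The genes named were the 8 members, all Chd8 transcripts, Tsc2, in each list of chromatin genes any called gene and the one with the lowest p per comparison, and the 5 genes most correlated with Chd8; other genes under an unadjusted p of 0.05 were named after their values were seen. The members and lists were chosen with earlier results of these data known.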

Additional observations from a re-analysis of the deposited data

Results flagged for a closer look

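The effects of the 2 siRNAs on the family were set against each other directly, by the comparison of Chd8 siRNA with Tsc2 siRNA with the replicate number as a block. Chd8 differed between them by a log2 fold change of -0.93 (edgeR adjusted p = 0.0156), lower in Chd8 siRNA in 3 of 3 same-numbered pairs, which is the difference the Chd8 siRNA was made to give. Chd7 differed by 0.49 (edgeR adjusted p = 0.0209), higher in Chd8 siRNA in 3 of 3 pairs, and Chd7 was not targeted. At a fold of 1.41 it was not called, and its adjusted p passed 0.05 when some single libraries were left out. The separation upward in CPM was shared by 4.02% of genes, and in TPM the groups overlapped (8.77 to 12.7 in Chd8 siRNA, 5.82 to 9.72 in Tsc2 siRNA). Both genes were flagged by the adjusted p given here. The Chd7 values were 137 to 139 CPM in Chd8 siRNA and 90.3 to 104 CPM in Tsc2 siRNA, with the control siRNA libraries at 114 to 139 CPM. The cause of the Chd7 difference was not tested. No test of single outlying libraries was made.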

How the results depend on the processing

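Of 664 alternative values, 590 kept their direction and their side of the threshold. The number of members called was 0 in every comparison without the block, also with another normalization, filter, tool or library set. With the replicate block it was 1 in Chd8 siRNA against control siRNA (Chd8, log2 fold change -0.93), and 1 also without control siRNA replicate 1, Chd8 siRNA replicate 1, Chd8 siRNA replicate 3 or all libraries numbered 1. In Chd8 siRNA against Tsc2 siRNA it was 1 with the block, 1 also without Chd8 siRNA replicate 1 or all libraries numbered 1, and 2 without Tsc2 siRNA replicate 1, where Chd3 joined Chd8 (-0.73, edgeR adjusted p = 0.0415). Apart from Chd8, the block on all 9 libraries changed no call of a member. Against the 6 other libraries, the edgeR difference of Chd8 was -0.93 with the block and -1.21 with the block and without the libraries numbered 1. With single libraries or all libraries numbered 1 left out, the permutation difference of Chd8 ranged from -1.30 to -0.71 (-1.20 without the libraries numbered 1), where the remaining libraries allow no p under 0.05 once a Chd8 siRNA library is absent (0.0714 with 2 against 6, exact permutation). On scalings added after seeing the data, it was -0.98 by library size alone and -0.75 in TPM (p = 0.0952, exact permutation), and in TPM the separations of Chd3 (-0.45) and Chd7 (-0.34) were lost as well. With single libraries left out, the retained-intron share difference from the 6 other libraries ranged from 2.58 to 5.85 points and the protein-coding one from -5.85 to -2.58. Leaving out a Chd8 siRNA library again allows no p under 0.05. Counts divided by transcript length gave a larger retained-intron difference, stated in the Results.

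In the alternative fits, the directions that reversed were of members with small differences, none of them called. Directions of the mean log2 level also turned between CPM and TPM, with overlapping groups. Among them, Chd6 went from 0.05 to -0.28 in Chd8 siRNA against control siRNA. Against Tsc2 siRNA, Chd9 went from 0.08 to -0.23 and Chd4 from 0.09 to -0.02 in Chd8 siRNA. In Chd8 siRNA against control siRNA, leaving out single libraries gave -0.07 to 0.19 for Chd2, -0.11 to 0.02 for Chd4 and -0.11 to 0.22 for Chd6, and Chd6 was at -0.03 with protein-coding transcripts only and -0.01 with the block without Chd8 siRNA replicate 3. In Tsc2 siRNA against control siRNA the ranges were -0.12 to 0.15 for Chd2, -0.06 to 0.22 for Chd3, -0.11 to 0.11 for Chd8 and -0.05 to 0.25 for Chd9. Protein-coding transcripts alone gave -0.01 for Chd2, -0.02 for Chd8 and -0.23 for Chd9, the 6 libraries alone gave 0.00 for Chd8, and the block gave -0.13 for Chd3 without Tsc2 siRNA replicate 3, and -0.12 and -0.14 for Chd8 without control siRNA replicate 1 and Tsc2 siRNA replicate 3. In Chd8 siRNA against Tsc2 siRNA the ranges were -0.05 to 0.07 for Chd1, -0.10 to 0.19 for Chd2 and -0.01 to 0.22 for Chd9. Chd1 was at -0.01 without the filter, 0.00 with the block, and 0.00, -0.04 and -0.02 with the block without Chd8 siRNA replicate 2, Chd8 siRNA replicate 3 and Tsc2 siRNA replicate 3, and Chd2 was at -0.01 with the block without Chd8 siRNA replicate 3. The causes of these shifts were not tested. Chd8-209 had 6.00 and 0 counts in Chd8 siRNA replicates 2 and 3, so its level there is known only roughly. A count of 0 gives only an upper limit, and only on the reads assigned to it.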
